A study of Rattus norvegicus with 14 samples.

Results

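The cell cycle and proliferation genes are a set of 38 genes listed by symbol, and 37 of them were measured by 52 of the 31042 probe sets tested. A probe set is a group of short DNA probes for a transcript, and it was taken where the array's annotation gave exactly 1 gene symbol. Rrm2, a subunit of ribonucleotide reductase, was left out because its 2 probe sets carry further symbols as well. All samples are rat left ventricle, taken 16 weeks after a tail vein injection under halothane. The 7 control animals had saline, and the labels give neither their strain nor their sex. The 7 diabetic animals, male Wistar rats, had streptozotocin at 60 mg/kg, which kills the insulin-producing beta cells, so the group is a model of insulin lack. One description of the diabetic samples names saline, and the titles and protocols were followed. Each animal was measured on its own Affymetrix Rat Genome 230 2.0 array, so 7 arrays per group set the precision.

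Values are log2(scaled signal + 50) after quantile normalisation, and differences are diabetic minus control on that scale. A call is a limma adjusted p under 0.05 over all probe sets. The 9 measured markers of heart muscle, such as Tnnt2 and Ryr2, had mean values from 13.97 to 15.06, far above the floor of 5.64 that the offset of 50 sets. Array medians of the deposited signal ranged from 14.8 to 85.3, and the 3 dimmest arrays were control replicates 3 and 5 and diabetic replicate 1. The arrays were also sorted into 3 classes by their control probe sets, the poly-A spike-ins and the ratio of the 3' to the 5' end of beta-actin. Class A held 2 control and 2 diabetic arrays, class B 2 and 2, and class C 3 and 3. The labels name no batch, and what the classes stand for is unknown here.

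A dividing cell passes through G1, copies its DNA in S phase, and goes through G2 into mitosis. D-type and E-type cyclins with Cdk4 and Cdk2 drive the G1 to S step, CDK inhibitors hold it back, and E2F factors switch on the replication genes. Cdk1 with A-type and B-type cyclins drives G2 and mitosis. Most heart muscle cells of an adult rat no longer divide, so transcripts of mitotic genes are scarce in whole ventricle. In whole-tissue RNA, fewer dividing cells and less RNA per cell cannot be told apart.

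Replication and mitotic genes are known for different promoter motifs, so short stretches are printed for the members with an unadjusted p under 0.05 that have an entry and for a replication gene. RefSeq's table for the build GRCr8 held a promoter for 29 of the 38 genes, 250 bases before to 50 bases after the start. The motifs searched on both strands were the CCAAT box (CCAAT), the cell cycle homology region CHR (TTTGAA or TTTAAA) and the E2F site. The E2F site was searched as GCGGGAA, also with its centre changed to GCGCGAA, then in the longer form TTTGGCGC and lastly as its variant TTTCGCGC. The second and the last of these forms overlap when read on opposite strands. The 140 bases before the start are shown from 5′ to 3′, with matches to any of these motifs in capitals:
Cdk1 (chr20:19265153-19265292, plus strand): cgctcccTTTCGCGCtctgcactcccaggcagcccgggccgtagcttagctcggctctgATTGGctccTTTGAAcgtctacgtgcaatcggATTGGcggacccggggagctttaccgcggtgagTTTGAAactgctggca
Prc1 (chr1:143659341-143659480, plus strand): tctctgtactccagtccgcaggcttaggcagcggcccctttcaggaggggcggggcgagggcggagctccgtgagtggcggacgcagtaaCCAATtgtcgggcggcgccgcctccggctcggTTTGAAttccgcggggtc
Nusap1 (chr3:127057155-127057294, plus strand): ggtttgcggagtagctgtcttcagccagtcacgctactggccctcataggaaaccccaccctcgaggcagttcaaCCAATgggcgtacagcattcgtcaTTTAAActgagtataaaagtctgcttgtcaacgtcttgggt
Top2a (chr10:84473094-84473233, minus strand): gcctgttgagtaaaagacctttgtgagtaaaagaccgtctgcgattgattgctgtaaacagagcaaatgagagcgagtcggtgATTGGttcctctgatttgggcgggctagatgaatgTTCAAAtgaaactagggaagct
Mcm5 (chr19:13488673-13488812, plus strand): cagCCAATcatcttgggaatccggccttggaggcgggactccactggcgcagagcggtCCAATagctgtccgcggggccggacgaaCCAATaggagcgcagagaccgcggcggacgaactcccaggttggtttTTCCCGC
Cdkn1b (chr4:169491364-169491503, plus strand): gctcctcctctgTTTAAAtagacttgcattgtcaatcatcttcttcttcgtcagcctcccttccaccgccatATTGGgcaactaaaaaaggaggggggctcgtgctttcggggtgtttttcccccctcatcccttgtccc

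All 14 promoters held for the 17 genes of G2 and mitosis had a CHR match, against 28.3% of all 33469 promoters of the same length. Of these 14, 10 also had a CCAAT box, and the pair was present in 11.3% of all promoters. In the other roles the pair was in 1 of 3 promoters of CDK inhibitors (Cdkn1b), 0 of 8 of replication genes and 0 of 4 of G1 genes. A CCAAT box with or without a CHR match was present in 37.5% of all promoters. In Prc1 the CCAAT box began 50 bases and the CHR match 18 bases before the start, and in Top2a they began 57 and 22 bases before it. Among the 8 promoters held for the 11 replication genes, 7 had an E2F match, against 5.98% of all promoters, and 1 had a CHR match. A CCAAT box was in 6 of these 8 (75.0%, against 71.4% in G2 and mitosis), so it was not particular to either role. Mcm5 above ends in such an E2F match, 7 bases before the start. Cdk1 was the 1 gene of G2 and mitosis with matches to all these motifs. These are matches of letters, not measured binding sites.

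Of the 37 genes measured, 0 were called between diabetic and control left ventricle, each gene by its brightest probe set. Over all 14217 named genes the share called was 1.72%. At an unadjusted limma p under 0.05 there were 7 member genes, 1 higher in diabetic animals (Cdkn1b) and 6 lower (Cdk1, Aurkb, Ube2c, Prc1, Nusap1 and Top2a). Over all named genes 5.94% were lower and 5.59% higher at that unadjusted p. Exact permutation of the animals (3432 assignments, two-sided) gave 6 member genes a p under 0.05, namely Cdkn1b, Mcm4, Aurkb, Ube2c, Prc1 and Nusap1. Cdk1 and Top2a did not reach it (exact permutation p = 0.0513 and 0.0501). The share of all named genes under that permutation p is not given here, so this count cannot be weighed. The median difference over the 37 genes was -0.09, against 0.00 over all named genes, and single genes ranged from -1.06 (Prc1) to 0.38 (Cdkn1b). The groups overlapped in every member gene, whereas they did not overlap in 1.83% of named genes. The 6 lower genes all act in G2 or mitosis, and the roles are described in turn below.

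**Figure D1:**
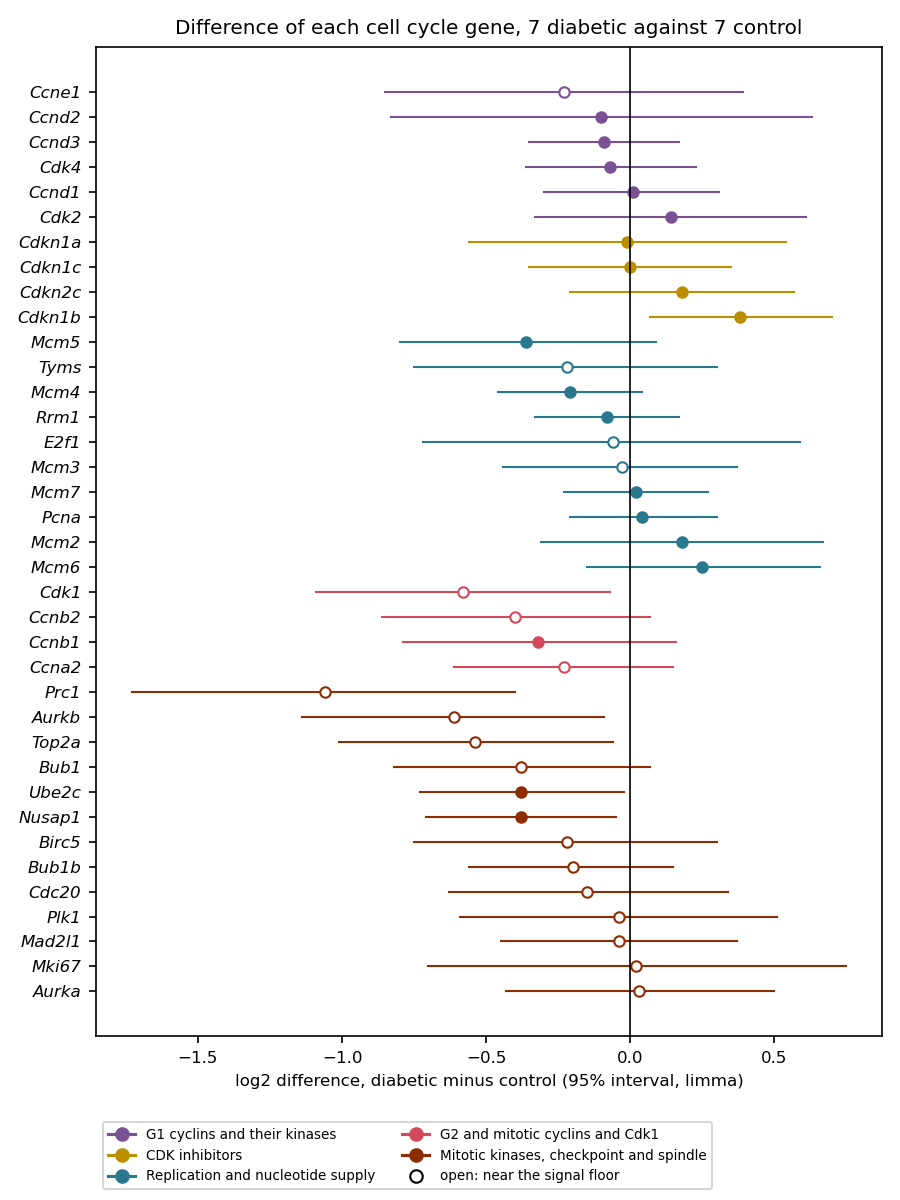
Log2 difference of each of the 37 cell cycle genes, diabetic minus control, with its 95% interval from limma (7 animals per group, unadjusted for the number of genes). Colours mark the role and open circles the 18 genes near the signal floor. The intervals of Cdkn1b on the higher side and of Prc1, Cdk1, Aurkb, Top2a, Ube2c and Nusap1 on the lower side leave out 0.

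Many members lay close to the floor of the signal. A probe set was counted as near the floor where its median scaled signal over the 14 arrays was under 100, which is a log2 value of 7.23 with the offset. This held for 28 of the 52 member probe sets and for 18 of the 37 genes (48.6%, against 29.6% of named genes). It held for 14 of the 17 genes of G2 and mitosis, for 3 of 10 replication genes, for 1 of 6 G1 genes (Ccne1) and for 0 of 4 CDK inhibitors. Near the floor the offset compresses differences, and whether the differences given for those genes understate or overstate a change was not tested. Calls were rarer there, with 0.452% of the 4202 named genes near the floor called. Of these dim named genes 4.05% were lower in diabetic animals at an unadjusted p under 0.05, and of the 18 dim members 4 were (Cdk1, Aurkb, Prc1 and Top2a).

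**Figure D2:**
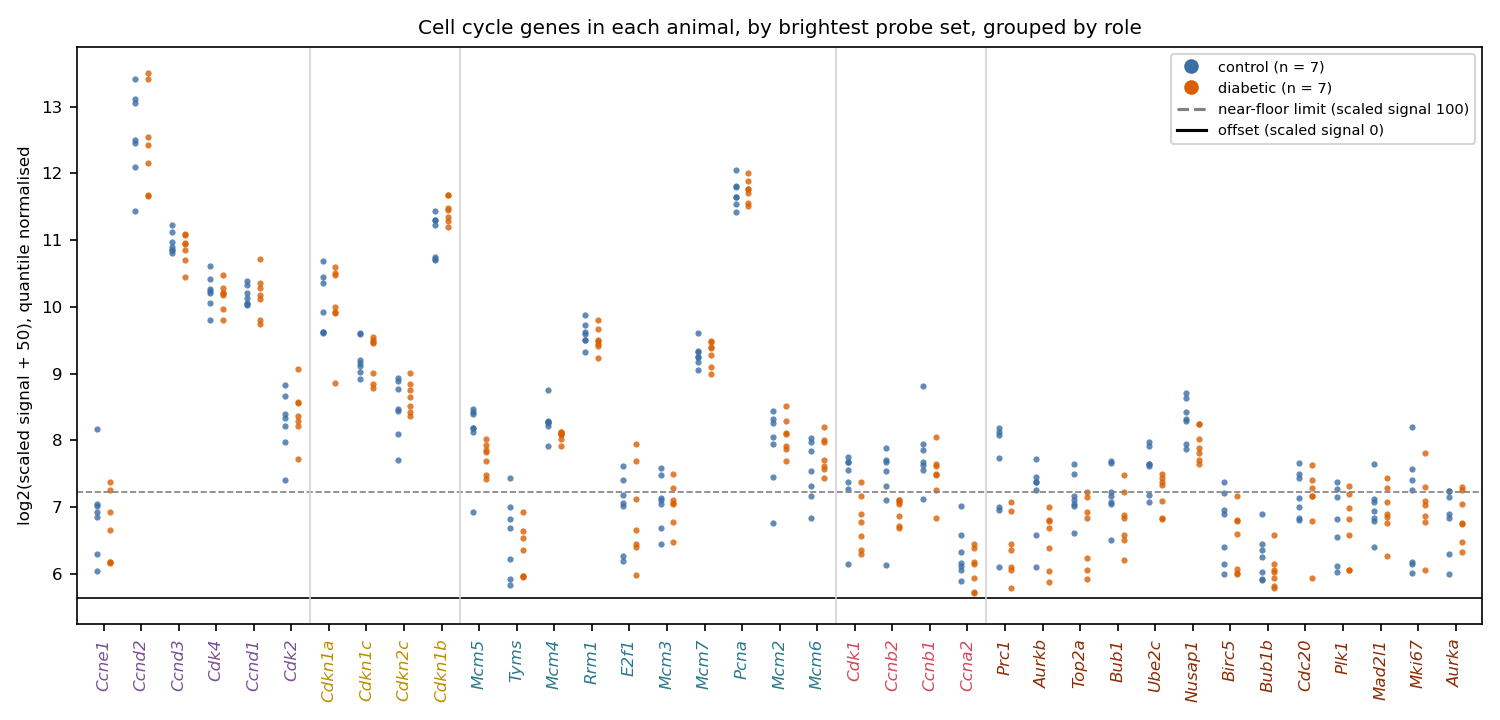
Value of each cell cycle gene in each animal, as log2(scaled signal + 50) by the brightest probe set, in 7 control (blue) and 7 diabetic (orange) animals, grouped by role. The dashed line is a scaled signal of 100 and the solid line a signal of 0. The points of both groups overlap for every gene, and most genes of G2 and mitosis on the right scatter around the dashed line. Heights of different genes are not comparable, since each has its own probes.

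The cyclins and kinases of G1 gave close means in both groups. Ccnd1, the D-type cyclin that answers to growth factors, was at 10.02, 10.13 and 10.38 in control animals (lowest, median and highest) and at 9.75, 10.18 and 10.72 in diabetic ones. The diabetic animals reached further both up and down, and the difference was 0.01 ± 0.14 (SE, n = 7 per group, limma adjusted p = 0.993). Ccnd3, another D-type cyclin, differed by -0.09 ± 0.12 and Cdk4, the kinase these cyclins activate, by -0.07 ± 0.14. Cdk2, which E-type cyclins activate, differed by 0.14 ± 0.22. Ccne1, cyclin E1, had the smallest p of the 6 genes, and its controls ran from 6.04 over 6.92 to 8.17 and its diabetic animals from 6.16 over 6.66 to 7.37. Both groups of Ccne1 spread around the near-floor limit and overlapped widely (difference -0.23 ± 0.29, limma adjusted p = 0.886, exact permutation p = 0.514).

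Ccnd2, also a D-type cyclin, stood out by its spread and not by a group difference. Its values ran from 11.43 over 12.50 to 13.42 in control and from 11.66 over 12.42 to 13.50 in diabetic animals. The SD was 0.68 in control and 0.75 in diabetic (difference -0.10 ± 0.34, SE, limma adjusted p = 0.970). Among the 463 named genes with a mean within 0.5 log2 of Ccnd2, 99.4% varied less within groups. The 5 highest animals, 3 control and 2 diabetic at 13.05 or more, were all on class C arrays, whereas the 8 animals of classes A and B lay between 11.43 and 12.55. The sixth class C animal, diabetic replicate 4, was at 12.15. The class difference of Ccnd2 did not pass (limma F test of class beside group, adjusted p = 0.0556), and the part of the class in its spread was not tested further.

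Among the CDK inhibitors, Cdkn1b (p27), which binds cyclin E with Cdk2 and holds cells in G1, had the smallest p. Controls were at 10.70, 11.23 and 11.43 and diabetic animals at 11.19, 11.45 and 11.67 (lowest, median and highest). The upper 4 diabetic animals lay above every control, and the lowest 3 controls lay below every diabetic animal. The difference was 0.38 ± 0.15 (SE), or 1.30-fold with a 95% interval from 1.05 to 1.62 (limma adjusted p = 0.366, exact permutation p = 0.0251). The 3 low controls, at 10.70 to 10.74, were those of class C, and the 4 controls of the other classes were at 11.23 to 11.43. Inside each class the diabetic animals of Cdkn1b all lay above the controls, with differences of 0.31, 0.20 and 0.55 in classes A, B and C. With class as a block in the same limma fit the Cdkn1b difference was 0.38 with an adjusted p of 0.0440. Cdkn1b was called in this 1 of 30 other settings, with limma adjusted p values up to 0.754. The second Cdkn1b probe set was near the floor and differed by 0.05 ± 0.28.

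The other CDK inhibitors had small differences. Cdkn1a (p21), the inhibitor induced by p53, was at 9.61, 9.92 and 10.69 in control and at 8.86, 9.99 and 10.59 in diabetic animals. Its difference was -0.01 ± 0.26 (SE, limma adjusted p = 0.997), and diabetic replicate 6 alone lay below all controls. Within-group spread of Cdkn1a exceeded that of 97.5% of the 1974 named genes of like mean. Cdkn1c (p57), an imprinted inhibitor, differed by 0.00 ± 0.16, and Cdkn2c (p18), which binds Cdk4 and Cdk6, by 0.18 ± 0.19. Cdkn1c followed the array classes in both groups, with 8.78 to 9.11 in class C and 9.16 to 9.61 in classes A and B.

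Replication genes showed no common direction. Of 10 measured, 4 had a higher and 6 a lower mean in diabetic animals, with a median difference of -0.05. Pcna, the clamp that holds DNA polymerase on its template, was at 11.42, 11.64 and 12.05 in control and at 11.51, 11.76 and 12.00 in diabetic animals. Pcna differed by 0.04 ± 0.12 (SE), and its 95% interval of 0.864-fold to 1.23-fold is among the narrower ones here. Rrm1, the large subunit of ribonucleotide reductase, differed by -0.08 ± 0.12, and Tyms, which makes thymidylate, by -0.22 ± 0.25 at a signal near the floor. E2f1, the activating E2F factor, differed by -0.06 ± 0.31, also near the floor.

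The 6 Mcm genes encode the ring of subunits that unwinds DNA at replication forks, and their differences pointed both ways. Mcm2 and Mcm6 were at 0.18 ± 0.23 and 0.25 ± 0.19, Mcm3 and Mcm7 at -0.03 ± 0.19 and 0.02 ± 0.12, and Mcm4 and Mcm5 at -0.21 ± 0.12 and -0.36 ± 0.21 (SE). Mcm4 had the smallest p of the replication genes, with controls at 7.91, 8.27 and 8.75 and diabetic animals at 7.91, 8.10 and 8.13. All 7 diabetic animals of Mcm4 lay below the control median, but control replicate 7 was as low as the lowest of them (limma adjusted p = 0.620, exact permutation p = 0.0350). The diabetic SD of Mcm4 was 0.08 and the control SD 0.25. For Mcm5 all 7 diabetic animals (7.42 to 8.02) also lay below the control median of 8.19. Control replicate 5 was at 6.92, below all the others, and without it the Mcm5 difference was -0.55 and passed (limma adjusted p = 0.0483). Mcm5 was called in this 1 of 30 other settings, which left out its lowest control.

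The genes of G2 and mitosis had lower means in diabetic animals in 15 of 17 cases, 14 of the 17 near the floor. Their median difference was -0.32, against -0.02 over named genes near the floor, and 6 of 17 had an unadjusted limma p under 0.05 on the lower side. None of the 17 was called, the lowest limma adjusted p being 0.164, so no fall was established for any of them. That count of 6 was 2 without control replicate 1 or 2, and 3 without control replicate 4 or diabetic replicate 7. In 6 of the 17 genes all 7 diabetic animals lay below the control median, which held for 2 of the 20 genes of the other roles (Mcm4 and Mcm5). The share of all named genes with that pattern is not given here, and the lists were chosen with earlier results known. These counts therefore only describe the animals measured. The mean over the 17 genes was 7.13 ± 0.28 in control and 6.81 ± 0.09 in diabetic animals (SD, n = 7), with ranges of 6.76 to 7.42 and 6.70 to 6.92. Control replicates 3 and 6 were at 6.76 and 6.78, within the diabetic range, and the other 5 controls were at 7.07 or above, beyond every diabetic animal.

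Cdk1, the kinase that starts mitosis, was at 6.14, 7.56 and 7.75 in control and at 6.29, 6.77 and 7.37 in diabetic animals. All 7 diabetic animals lay below the control median, but control replicate 6 was the lowest of all 14. The Cdk1 difference was -0.58 ± 0.24 (SE; limma adjusted p = 0.420, exact permutation p = 0.0513). Without control replicate 6 it was -0.78 and passed (limma adjusted p = 0.0494). Cdk1 was called in this 1 of 29 other settings, which left out its lowest control. Its partner cyclins had lower means too, by -0.40 ± 0.22 for Ccnb2, -0.32 ± 0.22 for Ccnb1 and -0.23 ± 0.18 for Ccna2, the cyclin of S phase and G2. Ccnb2 was tight in diabetic animals (6.68 to 7.11) and wide in controls (6.13 to 7.89).

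Prc1, which bundles microtubules in the middle of the dividing spindle, had the largest difference of the set. Controls were at 6.10, 7.74 and 8.19 and diabetic animals at 5.78, 6.35 and 7.08. The controls fell into 4 high animals (7.74 to 8.19), all on class A and B arrays, and 3 lower ones on class C arrays (6.10 to 7.00). In classes A and B every diabetic animal lay below every control, and in class C the ranges overlapped. The difference was -1.06 ± 0.31 (SE), or 2.09-fold lower on this scale (limma adjusted p = 0.164, exact permutation p = 0.0163), and -1.91, -0.93 and -0.59 within classes A, B and C. With class as a block Prc1 passed (limma adjusted p = 0.0218), and so it did without control replicate 6 (difference -1.29, adjusted p = 0.0258). That replicate was its lowest control, so leaving it out raises the control mean. Over 29 other settings Prc1 was called in 3, with limma adjusted p values up to 0.701. The median scaled signal of Prc1 was 67.4.

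**Figure D3:**
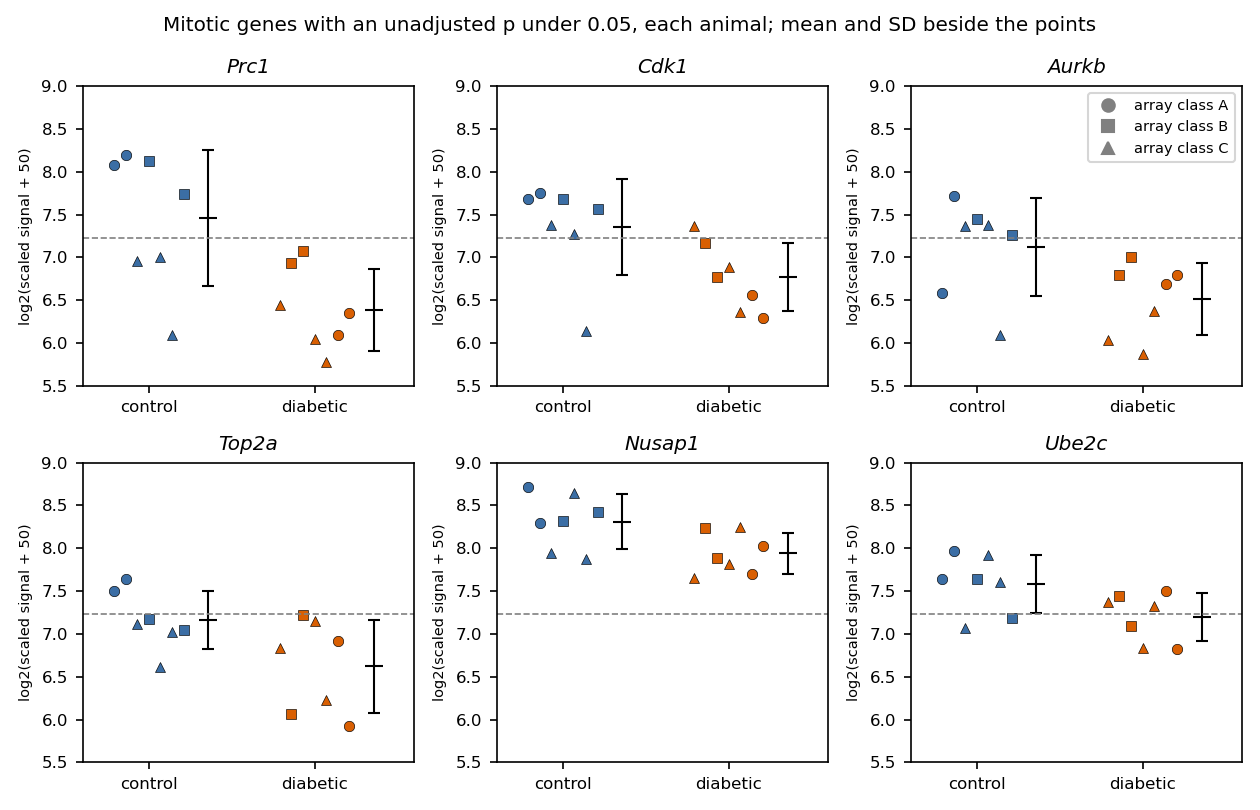
The 6 genes of G2 and mitosis with an unadjusted limma p under 0.05, as log2(scaled signal + 50) in each control (blue) and diabetic (orange) animal. The marker shape gives the array class, the bar is the mean ± SD of 7 animals, and the dashed line is a scaled signal of 100. Diabetic animals lie lower on average in each panel, every panel has overlapping groups, and the class C controls of Prc1 lie below its other controls.

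Top2a, the topoisomerase that untangles chromosomes, was measured by 2 probe sets, both near the floor. By the brighter one controls were at 6.61, 7.11 and 7.64 and diabetic animals at 5.92, 6.83 and 7.22 (difference -0.54 ± 0.22, SE, limma adjusted p = 0.426). By the other, 6 of 7 diabetic animals (6.37 to 6.60) lay below every control (6.63 to 7.85), and only diabetic replicate 2 reached 7.18 (difference -0.58 ± 0.19, limma adjusted p = 0.214). Aurkb, the kinase of the chromosomal passenger complex, was at 6.10, 7.37 and 7.72 in control and at 5.87, 6.69 and 7.00 in diabetic animals (-0.61 ± 0.25, limma adjusted p = 0.398). All 7 diabetic animals of Aurkb lay below the control median, and control replicates 1 and 6, at 6.58 and 6.10, lay within the diabetic range. Birc5 (survivin), a partner of Aurkb in that complex, differed by -0.22 ± 0.25.

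Nusap1 and Ube2c were the 2 genes among these 6 that lay above the near-floor limit. The brighter Nusap1 probe set had a median scaled signal of 228 and 0 arrays under 100. Ube2c lay close to the limit, with a median of 119 and 5 arrays under 100. Nusap1, a spindle protein, was at 7.87, 8.32 and 8.71 in control and at 7.65, 7.88 and 8.25 in diabetic animals (-0.38 ± 0.16, SE, limma adjusted p = 0.415), and its second probe set gave -0.39 ± 0.27. Ube2c, the ubiquitin-conjugating enzyme of the anaphase-promoting complex, was at 7.07, 7.64 and 7.97 in control and at 6.82, 7.33 and 7.50 in diabetic animals (-0.38 ± 0.17, limma adjusted p = 0.472). For both genes all 7 diabetic animals lay below the control median. Cdc20, which activates that complex, had 5 probe sets, 4 of them dimmer than the one used here, and they gave -0.15 to 0.24.

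The spindle checkpoint genes had lower means by differing amounts in their brightest probe sets. Mki67, Plk1 and Aurka differed by amounts near 0, whereas Top2a, Cdk1, Aurkb and Birc5 above had lower means. The genes of this paragraph were all near the floor. The checkpoint kinase Bub1 differed by -0.38 ± 0.21 (SE), Bub1b, which holds back Cdc20, by -0.20 ± 0.17, and Mad2l1, another part of that brake, by -0.04 ± 0.19. The other Mad2l1 probe sets, also near the floor, gave 0.20 ± 0.21 and 0.11 ± 0.22. Mki67, the antigen Ki-67 that marks dividing cells in histology, was at 6.01, 7.25 and 8.20 in control and at 6.05, 7.03 and 7.81 in diabetic animals. Its groups had nearly equal means (0.02 ± 0.34, limma adjusted p = 0.992), with a 95% interval from 0.616-fold to 1.68-fold, and its spread within groups exceeded that of 96.2% of the 2948 named genes of like mean. Plk1 and Aurka, kinases of mitotic entry and the spindle poles, differed by -0.04 ± 0.26 and 0.03 ± 0.22.

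For 10 genes above the near-floor limit the 95% interval lay within 1.5-fold in either direction. These were Ccnd1, Ccnd3, Cdk4, Cdkn1a, Cdkn1c, Cdkn2c, Pcna, Mcm4, Mcm7 and Rrm1. The interval of Prc1 reached furthest, from 0.301-fold to 0.759-fold, and a change of more than 1.5-fold lay within the interval of each of the other members above that limit. Of the 10 genes with several probe sets, 4 had probe sets of opposite sign (Ccnd1, Cdc20, Cdkn1a and Mad2l1). Those of Cdc20 ranged from -0.15 to 0.24. Those of Cdkn1a gave -0.01 ± 0.26 by the brighter and 0.32 ± 0.36 by the dimmer probe set.

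**Figure D4:**
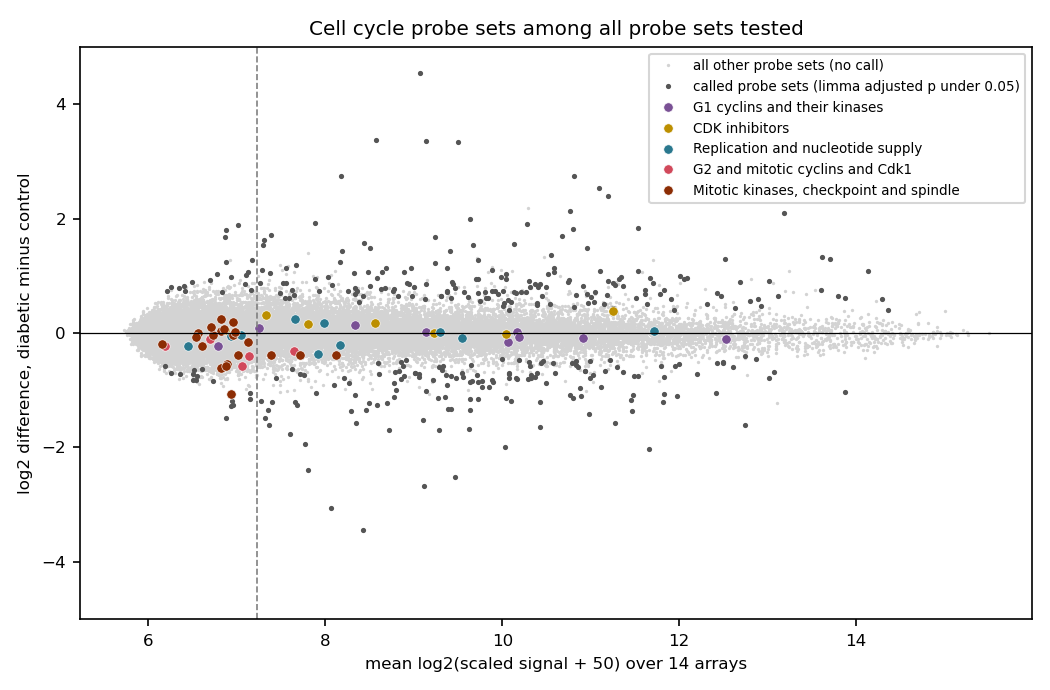
Mean value over 14 arrays, as log2(scaled signal + 50), against the log2 difference, diabetic minus control, for all 31042 probe sets. Light grey points were not called, dark grey points were called (limma adjusted p under 0.05), coloured points are the 52 cell cycle probe sets by role, and the dashed line is a scaled signal of 100. The coloured points lie within the light grey band or, for Prc1, at its lower edge, those of mitotic genes mostly left of the dashed line and below 0, and none is called.

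Some members differed between array classes. By an F test of class beside group in limma, a comparison chosen after seeing the data, 5 of 37 members differed between classes at an adjusted p under 0.05 (Cdk4, Cdkn1b, Cdkn1c, Mcm3 and Prc1), against 10.3% of named genes. Both groups were balanced over the classes, so a block for class left every difference as it was and changed only its error. With that block 2 members were called, Cdkn1b higher and Prc1 lower, against 3.09% of named genes. Within classes A, B and C, with 2 or 3 arrays per group, limma called 0 members each, and it called 0% of named genes there too, so these counts say nothing about the members. The median difference of the 17 genes of G2 and mitosis was -0.23, -0.46 and -0.19 within classes A, B and C, with 5, 5 and 0 at an unadjusted p under 0.05 on the lower side. Over all named genes the shares on the lower side were 3.73%, 5.6% and 3.59% in the same fits.

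**Figure D5:**
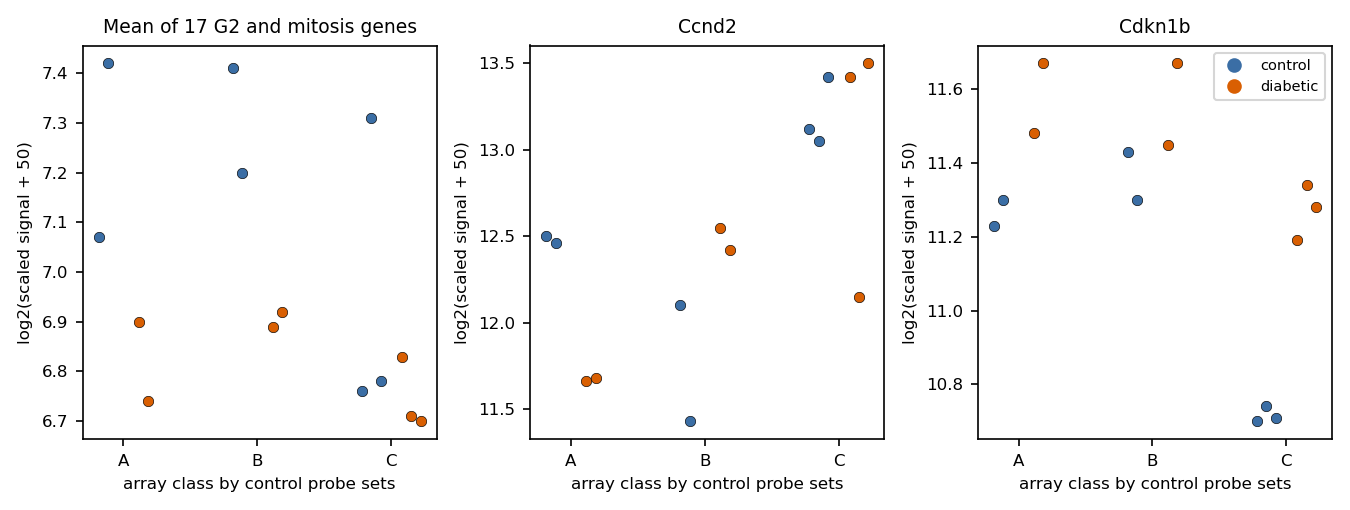
Mean of the 17 genes of G2 and mitosis, Ccnd2 and Cdkn1b in each animal, as log2(scaled signal + 50), by array class, with control in blue and diabetic in orange. In classes A and B every diabetic animal lies below every control for the 17 genes, and in class C the groups overlap. Cdkn1b is higher in all diabetic animals of each class than in the controls of that class, and 5 of the 6 class C animals have the highest Ccnd2.

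A wider list of 129 other cell cycle genes, 111 of them measured, gave a like picture. In limma 0 were called, 12 were lower and 3 higher at an unadjusted p under 0.05 (10.8% and 2.70%), and the median difference was -0.05. Over all named genes 1.72% were called, 5.94% were lower and 5.59% higher at that p. The 4 genes with the smallest p values, Cenpf, Kif23, Racgap1 and Ect2, were near the floor. Cenpf, a kinetochore protein, was at 6.87, 7.01 and 7.17 in control and at 5.80, 6.40 and 7.03 in diabetic animals. The controls of Cenpf lay close together and 6 of 7 diabetic animals below them all (-0.67 ± 0.16, SE, limma adjusted p = 0.0662). Kif23 and Racgap1, which together form the centralspindlin complex at the spindle middle, differed by -0.80 ± 0.21 and -0.72 ± 0.20 (limma adjusted p = 0.0940 and 0.127). Ect2, the exchange factor that this complex recruits to start cleavage, differed by -0.59 ± 0.15 (limma adjusted p = 0.0758). Of all 111 genes 68 had a lower and 43 a higher mean in diabetic animals. Other mitotic genes of the list went both ways, and those named here were picked after their values were seen. Hmmr, Tacc3 and Cks2 were lower, at -0.39 ± 0.14, -0.33 ± 0.12 and -0.54 ± 0.24, none of them called. Others lay near 0 or had higher means. The spindle motors Kif11 and Kif20a were at -0.01 ± 0.21 and 0.23 ± 0.28, the centromere histone Cenpa at 0.03 ± 0.25 and Pttg1 (securin) at 0.26 ± 0.25.

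With class as a block 3 of the 111 genes of that wider list passed, against 3.09% of named genes, a share near that over all genes. They are named here after their values were seen. Kif23 was lower (limma adjusted p = 0.0422), as was Mcm10, a replication factor (-0.65, limma adjusted p = 0.0341), and Meis1 was higher (0.49, limma adjusted p = 0.0287). Meis1 is a homeobox factor known to restrain division of heart muscle cells, and its mean was 10.34 ± 0.27 in control and 10.84 ± 0.23 in diabetic animals (SD, n = 7). Without a block neither Mcm10 nor Meis1 passed (limma adjusted p = 0.192 and 0.147).

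The p53 target genes were listed beside Cdkn1a, and 1 of 13 measured was called, against the 1.72% of named genes above. Gadd45a, a p53 and stress target that restrains Cdk1, fell in diabetic animals. It was at 11.75, 11.91 and 12.03 in control and at 10.88, 11.20 and 11.27 in diabetic animals. All 7 diabetic animals lay below all controls (difference -0.75 ± 0.10, SE, 1.68-fold lower, limma adjusted p = 0.000511), and the differences within classes A, B and C were -0.76, -0.66 and -0.79. The other targets with the smallest p values were Ccng1 (-0.23 ± 0.09, also on the wider list), Plk3 (0.27 ± 0.13) and Plk2 (-0.23 ± 0.15), none of them called. The median difference of the list was -0.10.

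Markers of other cell types were counted on the same fit, each gene by its brightest probe set. Of 9 endothelial, 10 fibroblast, 8 smooth muscle and pericyte, 10 macrophage, 9 lymphocyte, 5 atrial, 6 mast cell and 9 heart muscle markers, 0 were called in limma. The genes with the smallest p were Esam, Pdgfra, Tagln, Mrc1, Ptprc, Nppa, Kit and Myh6, in that order of cell types. All 5 atrial markers had higher means in diabetic animals, with a median difference of 0.90. Among them Myl7 ran from 8.49 to 14.18 in control and from 8.79 to 13.83 in diabetic animals. All 10 macrophage markers had higher means in diabetic animals, with a mean over the list of 9.12 to 10.01 in control and 9.60 to 10.16 in diabetic animals, and 4 had an unadjusted p under 0.05 on the higher side, against 5.59% of named genes. Of 7 fat cell markers 3 rose, Aqp7 (1.30 ± 0.14, limma adjusted p = 0.000114), Cfd and Fabp4, against 1.72% of named genes called in either direction. The other 4, Adipoq, Plin1, Cidec and Lep, were near the floor and not called, at 0.36, 0.05, 0.15 and -0.06. Of 4 red cell markers 1 fell, Slc4a1 (-1.22 ± 0.18, limma adjusted p = 0.00174), the anion exchanger of red cells. The other 3 had higher means and were not called, at 0.69 (Hbb), 0.56 (Alas2) and 0.11 (Ahsp). The part of these cell types in the values of the cell cycle genes was not tested.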

How the data were processed

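RNA of 14 animals (5 µg of total RNA each, per the labels) was measured on 14 arrays. The authors deposited 1 linear intensity per probe set and array. The submitters' processing notes name MAS5, RMA, affy and limma without roles, and the scaling behind the deposited intensity is unstated in the labels. Each array was scaled here to a trimmed mean of 500 that dropped 2% at either end. An offset of 50 came next, then log2 and quantile normalisation. Scale factors ran from 1.60 to 8.76. The 57 control probe sets were left out, and 31042 entered limma (version 3.58.1, under R 4.3.3) with group as the 1 term and p values adjusted by Benjamini-Hochberg. Named genes are the 14217 with a probe set of 1 symbol (20826 probe sets), each by the probe set of highest mean, and all 52 member probe sets matched RefSeq by gene ID with 0 symbols changed. Members, gene lists and the array classes were chosen with earlier results of these data known. The rule for named genes took every member, with values per animal for the smallest p of each role, the called genes or 4 smallest p of the other lists, and the smallest p of each marker list. Other genes shown per animal were picked after their values were seen. The labels call the samples separate animals, each on its own array, so p values measure the spread between animals and between arrays together. RNA was extracted with 1 of 2 kits, not assigned to animals in the labels. No detection calls were used, and saturation was not tested. Alternatives covered normalisation, offset, variance prior, array weights, blocks, arrays left out, a filter on dim probe sets and the probe set per gene.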

Additional observations from a re-analysis of the deposited data

Results flagged for a closer look

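In 3 of 74 groups of 7 animals (each of the 37 genes in each group) 1 animal lay apart from the rest, with a gap to the nearest animal that exceeded Dixon's 95% limit as a share of the group's range. Chance gives about 1 in 20 groups. For Cdk1 it was control replicate 6 at 6.14, the next control being at 7.27, and its scaled signal was 20.7. For Mcm5 it was control replicate 5 at 6.92, the next at 8.12. For Cdkn1a it was diabetic replicate 6 at 8.86, the next at 9.90. Leaving out the animal brought Cdk1 and Mcm5 past the threshold, as given above.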

How the results depend on the processing

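All probe sets called numbered 354 of 31042 (192 higher, 162 lower). This became 174 at a threshold of 0.01, 566 with an offset of 200, 543 with a trended robust prior, 645 with class as a block, 192 without the 3 dimmest arrays and 0 within each of classes A, B and C. With a replicate block it was 143. Same-numbered animals did not deviate together (correlations from -0.161 to 0.0865), and the replicate block called 0 members. These correlations also hold the differences between array classes, so a pairing by number was not tested apart from them. Member genes called were 2 with class as a block, 1 (Prc1) with array weights and 0 to 2 without single replicates. Other cell cycle genes called were 3 with class as a block, 2 with array weights (Cenpf, Ect2), 1 with the trended robust prior (Meis1) and 0 to 3 without single replicates: Ect2 without control replicate 3, Racgap1 without control replicate 6, Kif23 without diabetic replicate 2, and Cenpf, Kif23 and Mcm10 without diabetic replicate 6. The cause of these changes was not tested. For array weights, the trended robust prior and single replicates no share of named genes is given beside these counts, so they cannot be weighed. Member probe sets near the floor were 4 with a limit of 50, and 3 where the highest array had to lie under 100. The median difference of G2 and mitosis genes was -0.43 with an offset of 16 and -0.17 with 200. Their count on the lower side at an unadjusted p under 0.05 was 2 without control replicate 1 or 2, and 3 without control replicate 4 or diabetic replicate 7. Over 30 other settings, 6 of 1092 member results were called and 107 changed sign, none of the latter called. Gadd45a was not called within the classes.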
